A study of Mus musculus with 7 samples.

Results

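Marrow-flushed femora of Dmp1Cre mice were the control bone of a study of osteocyte EphrinB2, and the RNA of this control bone is described here without any comparison of genotypes. The libraries were chosen by their label, Control 1 to 4 with the genotype Dmp1Cre, and they were 4 of the 7 libraries of the series. The mice were 12-week-old females on a C57BL/6 background, littermates or cousins of the mice with floxed Efnb2. All 4 carried the Dmp1Cre transgene, in which a promoter fragment of Dmp1 drives Cre recombinase in late osteoblasts and osteocytes, and none carried a floxed Efnb2 allele, so Cre was a feature of every control. Controls 1 and 2 had the same parent cross, and controls 3 and 4 each had another. The mice had received calcein and were fasted before collection, and the ends of each femur were cut off and the marrow flushed out before freezing. Collection took place on 2 days, with 3 controls on the first and 1 on the second, and the labels do not say which library belonged to which day.

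Cortical bone is made by osteoblasts, which secrete a matrix of type I collagen and the proteins that mineralise it. Some osteoblasts become buried in that matrix as osteocytes, the long-lived cells that sense load and release the Wnt inhibitor sclerostin, and osteoclasts, derived from the myeloid lineage, resorb bone. Flushing removes loose marrow, while vessels, periosteum, attached tendon and muscle, and marrow lodged in the bone surface can stay with the shaft.

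Reads assigned to each of 27179 genes were counted. The 4 totals ran from 17245556 to 22075778 counts, and levels are given as CPM, the counts of a gene scaled to a library total of 1000000 or, where genes are compared with each other, as CPM per kilobase of counted exons. Detection was set at 0.65 CPM or more in at least 3 of the 4 libraries, which 15551 genes (57.2%) reached, among them 13908 of the 20983 protein-coding genes. A further 3969 genes had no count in any control. No 2 libraries agreed within sampling noise (chi-square of the counts over genes divided by its degrees of freedom, 32.1 to 204 in the 6 pairs), so the 4 were treated as separate samples. The closest pair was controls 2 and 3, in which 1.63% of genes differed over 2-fold. Controls 1 and 2, of the same cross, had 13.0% of genes over 2-fold apart, and controls 3 and 4 had 18.6%.

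A small number of genes held much of the RNA. The 10 most abundant genes took 11.9% ± 2.75 (SD, n = 4) of the counts, the first 100 took 26.4% ± 3.39 and the first 1000 took 52.9% ± 3.35. The first 100 took 29.7% in control 1, 22.2% in control 2, 25.3% in control 3 and 28.5% in control 4. A detected gene had a median mean level of 21.4 CPM, 2061 genes had a mean of at least 100 CPM and 65 genes a mean of at least 1000 CPM.

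Ranked by CPM, the 20 leading genes came from the matrix, from red cells, from muscle, from neutrophils and from structural RNAs. They were, in order, Rn45s, Col1a1, Col1a2, Rn7sk, Ttn, mt-Rnr2, Hba-a1, Malat1, Actb, Hba-a2, Hbb-bs, Hbb-b1, COX1, S100a9, Acta1, Myh4, Slc4a1, Rpph1, Ngp and Flna. Rn45s, the precursor of cytoplasmic ribosomal RNA, stood at 30588, 13871, 15184 and 20737 CPM in controls 1 to 4. Per kilobase the order changed, and short transcripts rose to the top. Rn7sk, the 7SK RNA that restrains transcription elongation, led with a mean of 36197 CPM per kilobase, followed by an unnamed 82-base transcript (Entrez 100628626) at 23360. The alpha-globin genes Hba-a1 and Hba-a2 came next, with 18199 and 11340 CPM per kilobase. Col1a1 lay at rank 14 on this scale, with 3471 CPM per kilobase, and Ttn, whose counted exons span 104320 bases, fell to rank 528 with 101.

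**Figure D1:**
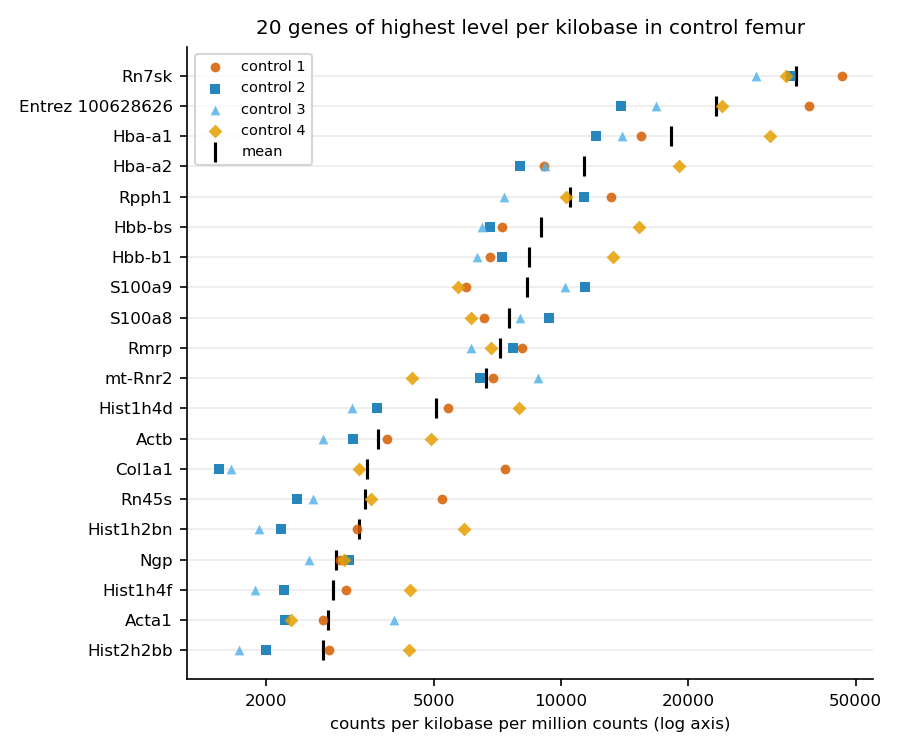
Level of the 20 genes with the highest mean CPM per kilobase in control femur. Each point is 1 control library, the black bar is the mean of 4, and the x axis is a log scale of counts per kilobase, scaled to 1000000 counts per library; globin and histone genes stand highest in control 4, Col1a1 in control 1 and S100a9 in control 2.

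RNAs without a poly(A) tail were among the leaders per kilobase. The 7SK RNA and the RNA parts of RNase P and RNase MRP, Rpph1 and Rmrp, together took 1.74% ± 0.341 (SD, n = 4) of the counts. Replication-dependent histone mRNAs, which end in a stem-loop and encode the chromatin proteins made in S phase, took 3.35% ± 1.73, and 67 of 69 of these genes were detected. Their share was 3.49% in control 1, 2.31% in control 2, 1.87% in control 3 and 5.73% in control 4. Hist1h4d, the histone gene of highest level per kilobase, had 1680, 1145, 994 and 2485 CPM. Near-identical histone genes share reads, so single histone values are uncertain.

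Mitochondrial genes had another order of libraries. The 13 mitochondrial protein-coding genes, whose products are subunits of the respiratory chain and ATP synthase, held 0.342%, 0.862%, 1.13% and 0.223% of the counts, a 5.07-fold range. COX1, a catalytic subunit of cytochrome c oxidase, had 2062, 5683, 7401 and 1325 CPM, and the ribosomal RNA mt-Rnr2 had 10913, 10180, 13929 and 6996. COX2, another core subunit of the same enzyme, was listed at a mean of 17.1 CPM and ATP6 at 11.3. COX1, COX2 and ATP6 are AT-rich, and their ranges narrowed with the trend against GC content described further on removed. COX1 went from 5.58-fold to 2.24-fold, COX2 from 12.8-fold to 5.14-fold and ATP6 from 9.12-fold to 3.66-fold. The share of all 13 genes with the trend removed was not computed. Reads of mitochondrial genes can also match nuclear copies, so the levels of single genes are uncertain. Ribosomal protein genes took 1.02% ± 0.209 of the counts and varied 1.56-fold.

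The osteoblast list had the highest mean sum in CPM, which is not scaled by transcript length, and this rested on control 1. The 12 osteoblast markers were all detected, and their summed level was 68594, 15494, 14844 and 30977 CPM in controls 1 to 4, a mean of 32477 ± 25206 (SD, n = 4). Control 1 stood above the other 3 libraries, and the mean without it was 20438 CPM, below the muscle and erythroid lists (32027 and 31774 CPM without control 1). In controls 2 and 3 the muscle, erythroid and later granule lists all summed higher. The 2 chains of type I collagen supplied most of this sum. Col1a1 (chr11:94936224-94953042, GRCm38.p6) had 34750, 7279, 7751 and 15607 CPM, and Col1a2 (chr6:4505618-4541543) had 27954, 6187, 5661 and 12798. The 44 collagen chain genes together took 7.48% of the counts of control 1 against 1.67% to 3.32% in the other controls.

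The secreted matrix proteins followed the same order of libraries, with exceptions. Sparc, the collagen-binding protein osteonectin, had 3061, 725, 606 and 1233 CPM. Bglap, which encodes osteocalcin, had 1063, 240, 226 and 606 CPM, and its neighbour Bglap2 had 392, 96.0, 83.5 and 228. The coding sequences of Bglap and Bglap2 differ at 4 of 285 bases, so counts could be split between them and the separate values are uncertain. Spp1, which encodes osteopontin, was highest in control 1 (567 CPM) and lowest in control 4 (151 CPM), or in control 3 with the trend against GC content described further on removed. Ibsp, the bone sialoprotein that nucleates mineral, was the exception among the 12, with its highest value in control 2 (420, 525, 212 and 140 CPM). With the GC trend removed it too was highest in control 1, as were all 12.

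The enzymes and regulators of osteoblasts were less abundant. Alpl, the alkaline phosphatase needed for mineralisation, had 196, 70.7, 39.8 and 90.3 CPM. Sp7, the osteoblast transcription factor osterix, had 52.2, 19.8, 15.8 and 29.2 CPM. Runx2, which acts above Sp7 in the lineage, varied least of the list, from 61.1 to 86.3 CPM (CV 17.8%, the SD as a percent of the mean). Among genes with a mean of at least 10 CPM, 11 of the 12 osteoblast markers ranged at least 2-fold from the lowest to the highest control, against 28.3% of all 10355 such genes, and 11 were highest in control 1, against 18.4%.

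The promoter of Bglap is shown because osteocalcin is made by osteoblasts and Bglap ranked 72 of all genes per kilobase. It is the stretch of 250 bases before the start on the minus strand (chr3:88384467-88384716), from RefSeq for GRCm38.p6, written 5′ to 3′. Capitals mark TATAA, the reverse complement of TGTGGT (the core bound by Runx factors) and CCAAT.
Bglap: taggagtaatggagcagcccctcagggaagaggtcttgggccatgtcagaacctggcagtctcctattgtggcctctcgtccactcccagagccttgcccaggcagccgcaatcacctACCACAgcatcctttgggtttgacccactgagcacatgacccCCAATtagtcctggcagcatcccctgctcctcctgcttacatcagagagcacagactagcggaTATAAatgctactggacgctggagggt

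TATAA began 27 bases before the start. On the gene's strand and between 40 and 20 bases before the start, TATAA was found in 4.13% of 20439 promoter windows of 16784 protein-coding genes of the count table. The share was 2.25% of windows of detected genes, 8.35% of windows of genes below detection and 21.2% (18 of 85) of windows of the 100 protein-coding genes of highest level per kilobase, 79 of which had a window. TGTGGT on either strand was in 14.6% of all windows of 300 bases (250 before and 50 after the start), and in 4 of 11 windows of the osteoblast list. CCAAT on either strand was in 38.2% of all windows, so its presence at Bglap is common to many genes. These matches describe letters and do not show binding.

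Osteocyte transcripts were present at lower levels. The list of 8 markers summed to 598, 269, 157 and 181 CPM (mean 301 ± 203, SD, n = 4), with 7 detected, all 7 highest in control 1, against 21.3% of all detected genes. Dmp1, the matrix phosphoprotein whose promoter drives the Cre of these mice, had 212, 77.2, 54.2 and 71.6 CPM. Sost, which encodes sclerostin, had 149, 52.4, 24.5 and 36.5 CPM, the widest range of the abundant members at 6.08-fold. Mepe, another phosphoprotein of mature bone, had 84.1, 37.9, 19.2 and 24.3 CPM.

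Members of phosphate control differed from each other in level. Phex, an endopeptidase lost in X-linked hypophosphataemia, had 108, 89.2, 48.8 and 35.4 CPM, and with the GC trend removed controls 2 and 4 had about the same level (58.4 and 58.5). Fgf23, the phosphate-lowering hormone of osteocytes, did not reach the detection minimum and had 5, 11, 16 and 10 counts (0.235 to 0.901 CPM). Pdpn, the podoplanin of young osteocytes, had a mean of 4.61 CPM. In bulk RNA, fewer cells of a type and less RNA per cell cannot be told apart, here or in the lists that follow.

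Efnb2 itself, the gene that the floxed allele of the other mice removes, was a gene of low level in control bone. It had 164, 139, 110 and 117 counts, or 7.71, 8.06, 6.19 and 5.30 CPM (mean 6.82 ± 1.29, SD, n = 4), a 1.52-fold range. Efnb1, which encodes another transmembrane ephrin, had 33.2, 21.05, 15.0 and 21.3 CPM. The level of Efnb2 here is that of whole flushed bone and not of osteocytes alone.

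Osteoclast markers were all detected, 12 of 12, and summed to 3171, 2324, 1478 and 2240 CPM. Of the 12, 9 were highest in control 1 (8 with TMM or DESeq2 factors, 11 with the GC trend removed), against 21.3% of all detected genes. Mmp9, a matrix protease that neutrophils also make, was the largest member, with 1284, 705, 536 and 716 CPM. Acp5, the tartrate-resistant acid phosphatase, had 646, 281, 113 and 249 CPM. Ctsk, the collagen-cleaving protease cathepsin K, had 426, 222, 72.3 and 116 CPM. Atp6v0d2, a proton pump subunit used in cell fusion, had 27.8, 32.2, 7.27 and 6.75 CPM, and Calcr, the calcitonin receptor, had 2.82, 3.19, 0.788 and 0.906, so for both the pair from the shared cross stood above the other controls without overlap. In CPM, Acp5, Ctsk, Oscar, Dcstamp, Ocstamp, Nfatc1 and Tnfrsf11a had the same split, while Mmp9, Itgb3 and Clcn7 did not. With TMM or DESeq2 factors Acp5 and Nfatc1 lost it, as control 4 then lay above control 2. Among all genes with a mean of at least 10 CPM, 8.80% had their 2 highest values in controls 1 and 2. That share does not cover Calcr, Oscar, Dcstamp and Ocstamp, whose means were below 10 CPM. This split by cross was picked out after the values were seen.

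Itgb3, the beta-3 integrin shared with platelets, was highest in control 4. It had 545, 884, 590 and 973 CPM, the order of the megakaryocyte list described further on. Clcn7, a lysosomal chloride transporter found in many cells, had 69.1 to 85.4 CPM (CV 9.15%), highest in control 1 but in control 4 with TMM or DESeq2 factors. Nfatc1 and Tnfrsf11a, the master transcription factor and the receptor RANK, had means of 92.4 and 11.7 CPM and were highest in control 1.

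Cartilage and tendon transcripts were carried largely by control 1. The chondrocyte list summed to 1023, 318, 160 and 310 CPM, and without control 1 its mean was 263 instead of 453. Col2a1, the main collagen of cartilage, gave 77.1% of the mean sum and was present in all 4 libraries (712, 282, 127 and 275 CPM). Acan, the large proteoglycan aggrecan, had 71.1, 1.28, 4.79 and 8.83 CPM, and Comp, a matrix protein of cartilage and tendon, had 216, 22.3, 14.2 and 19.7. Col10a1, the collagen of hypertrophic cartilage, did not share this order, with 10.7, 10.4, 11.7 and 5.07 CPM. Matn1, Matn3, Ucma and Col9a1 were below detection.

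The 6 tendon and periosteal markers were highest in control 1 in every case, against 21.3% of all detected genes. Their sum was 1156, 254, 326 and 187 CPM, and the mean without control 1 was 256 instead of 481. Postn, the periosteal matrix protein periostin, had 435, 167, 170 and 116 CPM. Fmod, a collagen-binding proteoglycan of tendon, had 285, 23.5, 57.6 and 33.7, and Thbs4, a thrombospondin of tendon and muscle attachments, had 416, 57.6, 90.6 and 32.4. Tnmd and Scx, the tendon genes of narrowest use, reached 9.26 and 5.59 CPM in control 1.

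Fat cell genes summed to 529, 156, 251 and 172 CPM. Of the 6 detected, 4 were highest in control 1 (5 with the GC trend removed), against 21.3% of all detected genes. Fabp4, a fatty acid carrier, gave 35.5% of the mean sum of the list and was highest in control 3, with 92.3, 90.6, 170 and 40.7 CPM, though not with the GC trend removed (124, 62.9, 120 and 63.6). Cfd, the secreted protease adipsin, had 258, 7.25, 19.7 and 29.9 CPM, and Cidec, a lipid droplet protein, had 58.0, 2.03, 6.48 and 3.58. Adipoq, which encodes adiponectin and is also made by marrow stromal cells, had 88.7, 53.6, 48.4 and 94.8 CPM and so was about as high in control 4 as in control 1. Ucp1, the heat-producing protein of brown fat, had at most 0.0580 CPM, and Lep, the hormone leptin, at most 0.901.

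Of the 20 genes with the highest CV among those with a mean of at least 10 CPM, 16 were highest in control 1. The share over all such genes was 18.4%, but a choice by CV over these same libraries favours genes with 1 high library. Nothing is therefore read from the number. The 16 included the liver and fat enzymes Pck1 (57.5, 2.38, 8.39 and 0.725 CPM) and Cyp2e1 (61.8, 2.73, 9.01 and 0.997 CPM). The tendon and cartilage genes Acan, Chad, Comp, Cilp, Cilp2, Fmod, Prg4 and Thbs4 were 8 of the 20. Cilp, the cartilage intermediate layer protein, had 184, 18.7, 22.5 and 10.6 CPM, and Prg4, the joint lubricant lubricin, had 33.1, 6.67, 5.58 and 2.04. The 4 of the 20 not highest in control 1 were Igfn1, highest in control 3, the immunoglobulin segments Ighv10-1 and Igkv3-2, highest in controls 4 and 2, and Gdpd3. Gdpd3, a lysophospholipase D, had 4.28, 7.77, 6.59 and 77.1 CPM.

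Skeletal muscle RNA was present in all 4 libraries. All 15 markers were detected, with a summed level of 22516, 24222, 53985 and 17874 CPM. Control 3 stood above the other 3 libraries, and 12 of the 15 were highest there, against 19.2% of all genes with a mean of at least 10 CPM. Acta1, the skeletal actin, had 3902, 3168, 5751 and 3273 CPM. Ttn, the giant spring protein titin, had 7471, 8851, 22246 and 3756 CPM. Pvalb, the calcium buffer of fast fibres, had 302, 414, 1138 and 457 CPM.

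Fast and slow fibre genes were highest in different libraries. Myh4, the myosin of the fastest fibres, had 1667, 3270, 8191 and 2378 CPM. Myh7, the myosin of slow fibres, had 739, 261, 42.5 and 46.2 CPM, a 17.4-fold range in which controls 1 and 2 stood above controls 3 and 4. Genes of the slow troponins and myosin light chains were then looked up, a choice made after the Myh7 values were seen. Tnni1 had 124, 40.9, 4.34 and 8.20 CPM, Tnnc1 had 90.7, 38.4, 5.97 and 7.66, and Myl2 and Myl3 had the same order of the first pair over the second. All 9 fast fibre genes (Myh4, Myh1, Tnnt3, Tnnc2, Tnni2, Actn3, Pvalb, Atp2a1 and Mylpf) were highest in control 3, against 19.2% of all genes with a mean of at least 10 CPM. All 5 slow fibre genes were highest in control 1, against 18.4%. Myh7 had prompted the choice of the other 4, and both Myh7 and Tnni1 were among the genes of highest CV described above. The slow fibre genes were thus picked on these same values, so nothing is read from their comparison with 18.4%. The highest library of each of these 14 genes was the same under every scaling tried. Myh2, the myosin of intermediate fibres, had 1165, 916, 1076 and 440 CPM.

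The genes of tissues that were not sampled gave a check on stray reads. Of 12 such markers, 10 did not reach the detection minimum in at least 3 libraries and had 1.22 CPM or less in every library, among them Alb of liver, Sftpc of lung and Snap25 of neurons. Ins2 had no count, which allows up to 3 counts in a library or 0.174 CPM in the shallowest. Myh6, the myosin of heart muscle, was the higher of the 2 exceptions, with 68.1, 48.7, 4.90 and 8.02 CPM, and it shares long stretches of sequence with Myh7 and had the same pair of libraries on top. Gfap, an intermediate filament of glia, had 14.2, 17.0, 20.5 and 32.0 CPM.

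In summed CPM, the erythroid list was close to the muscle list (means of 29886 and 29649), and the order of the 2 lists changed between libraries. These sums are not scaled by transcript length, and Ttn, with 104320 counted bases, gave 35.7% of the muscle sum. List sums per kilobase were not compared. All 13 erythroid markers in the table were detected, with a summed level of 24224, 22839, 24121 and 48361 CPM. Controls 1 to 3 lay close together, and control 4 stood above them by a wide gap. The erythroid sum exceeded that of muscle in controls 1 and 4 and lay below it in controls 2 and 3, and without control 4 the means were 23728 and 33574 CPM. Hba-a1 (chr11:32283672-32284486) had 8639, 6771, 7801 and 17482 CPM, and Hbb-bs, the main adult beta-globin here, had 4641, 4330, 4146 and 9793. The coding sequences of Hba-a1 and Hba-a2 differ at 1 of 426 bases, so their counts can be exchanged and only their sum is firm. Globin genes together took 2.27%, 2.01%, 2.11% and 4.63% of all counts.

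The erythroid list did not behave as a unit. Alas2, the first enzyme of haem synthesis in red cells, had 1421, 1332, 1375 and 2853 CPM, and Slc4a1, the anion exchanger of the red cell membrane, had 3019, 2677, 2666 and 5569. Klf1, the erythroid transcription factor, had 147, 155, 143 and 320 CPM, and Epor, the erythropoietin receptor, had 62.4, 73.5, 66.9 and 117. These and the globins, 7 of 13, were highest in control 4 (8 of 13 with TMM or DESeq2 factors), against 30.9% of all genes with a mean of at least 10 CPM. The other 6 were highest in control 2 or 3. Tfrc, the transferrin receptor that brings in iron, had 333, 1042, 872 and 311 CPM, and so was lowest in control 4, close to control 1. With the GC trend removed it was lowest in control 1 (465, 682, 578 and 514).

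The promoters of Hba-a1 and Alas2 are shown because GATAA, the core bound by GATA factors, was found in most windows of the erythroid list. Each is the stretch of 250 bases before the start on the plus strand, chr11:32283422-32283671 and chrX:150547167-150547416, from RefSeq for GRCm38.p6. Capitals mark GATAA or its reverse complement TTATC, and for Hba-a1 also TATAA near the start and CCAAT.
Hba-a1: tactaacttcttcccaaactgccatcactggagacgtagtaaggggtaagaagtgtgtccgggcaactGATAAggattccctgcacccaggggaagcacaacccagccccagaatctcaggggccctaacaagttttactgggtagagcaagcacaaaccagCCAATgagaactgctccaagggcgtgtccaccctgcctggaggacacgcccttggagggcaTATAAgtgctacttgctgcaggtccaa
Alas2: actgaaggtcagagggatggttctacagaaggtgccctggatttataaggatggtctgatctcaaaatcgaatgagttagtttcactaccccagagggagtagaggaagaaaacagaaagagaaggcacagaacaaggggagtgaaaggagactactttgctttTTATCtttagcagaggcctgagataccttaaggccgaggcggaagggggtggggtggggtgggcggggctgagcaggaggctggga

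GATAA on either strand was found in 9 of 11 windows of 10 erythroid genes (81.8%), against 22.3% of all 20439 windows and 16.9% of windows of detected genes. The erythroid windows had a median GC content of 53.0%, and all windows 57.0%. In Hba-a1, TATAA began 27 bases before the start, as it did in Bglap. Osteoblast windows held GATAA in 1 of 11 cases.

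The order of libraries within the erythroid list ran along the base composition of the transcripts. The first 120 coding bases of a gene of each kind are shown, with G and C in capitals, from GENCODE M21 (GRCm38), because the contrast is visible in the letters. Tfrc, lowest in control 4 in CPM, has 55 G or C bases of 120, and Klf1 and Hba-a1, highest in control 4, have 71 and 65.
Tfrc: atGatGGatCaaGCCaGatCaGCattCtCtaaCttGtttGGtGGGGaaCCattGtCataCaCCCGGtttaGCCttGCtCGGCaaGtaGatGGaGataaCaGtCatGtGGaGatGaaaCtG
Klf1: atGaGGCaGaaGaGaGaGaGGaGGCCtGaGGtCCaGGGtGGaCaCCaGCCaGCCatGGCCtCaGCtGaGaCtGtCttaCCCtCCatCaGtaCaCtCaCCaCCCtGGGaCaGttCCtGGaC
Hba-a1: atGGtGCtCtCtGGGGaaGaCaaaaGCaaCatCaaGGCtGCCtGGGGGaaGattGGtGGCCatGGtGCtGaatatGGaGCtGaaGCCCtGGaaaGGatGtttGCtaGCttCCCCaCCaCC

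Over whole transcripts, GC content was 39.8% for Tfrc, 61.0% for Klf1 and 57.2% for Hba-a1. In each of the 7 erythroid genes highest in control 4 it was at least 51.3%, and in each of the 6 others at most 47.1%.

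**Figure D2:**
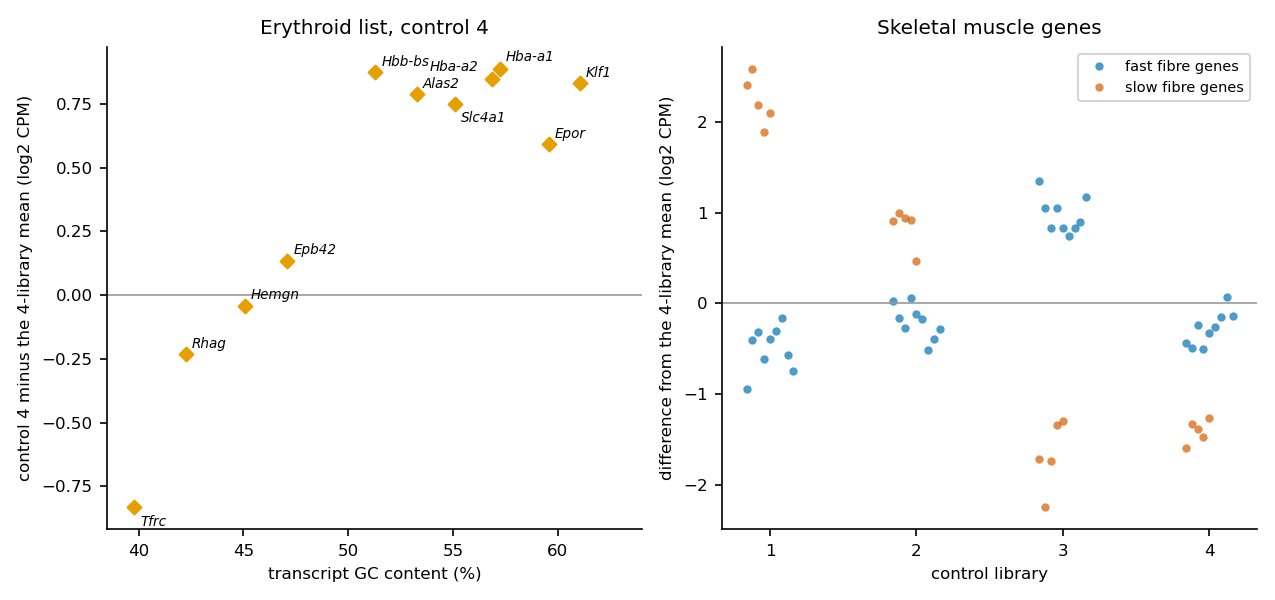
Left, 11 of the 13 erythroid genes by transcript GC content (x axis, percent) and by their level in control 4 minus the mean of the 4 controls (y axis, log2 CPM); the genes above 51% GC lie above 0 and Tfrc lies lowest. Right, the same difference in each control library (x axis) for 9 fast fibre and 5 slow fibre genes of skeletal muscle, 1 point per gene; fast fibre genes are highest in control 3 and slow fibre genes in control 1.

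The same trend ran across the whole transcriptome. GC content was known for 10062 (97.2%) of the 10355 genes with a mean of at least 10 CPM, and each library was compared with the 4-library mean of log2(CPM + 0.5). For the fifth of genes lowest in GC, with a median GC content of 42.1%, the median difference was -0.42 in control 1, 0.51 in control 2, 0.47 in control 3 and -0.59 in control 4. For the fifth highest in GC, at 58.1%, it was 0.14, -0.14, -0.26 and 0.23. The Spearman correlation across genes of GC content with this difference was 0.64, -0.75, -0.71 and 0.68, given as a description, since genes of 1 library are not independent. Transcript length showed a weaker relation, from -0.37 to 0.30. Whether base composition or another property of the libraries sets these levels was not tested.

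**Figure D3:**
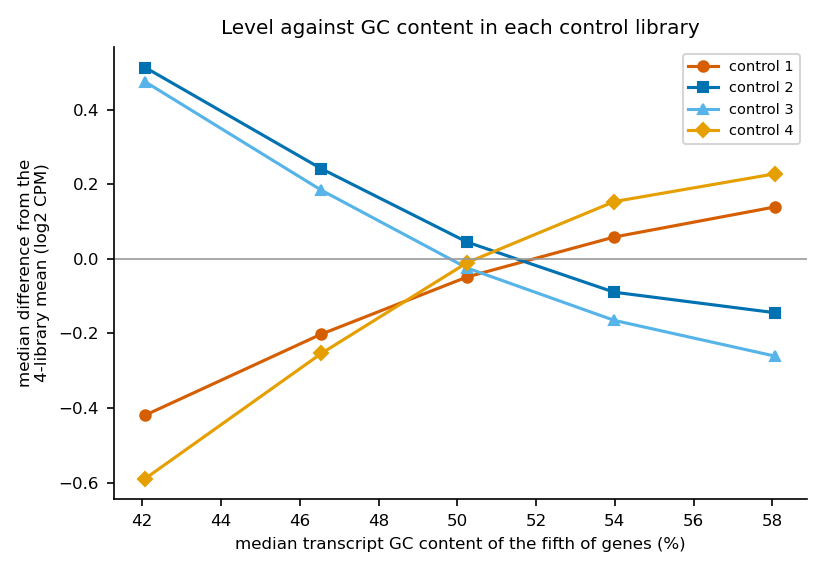
Median difference of each control library from the 4-library mean, in log2(CPM + 0.5), for 5 groups of about 2012 genes ordered by transcript GC content (x axis, median percent of the group). Controls 2 and 3 lie above 0 for AT-rich genes and below 0 for GC-rich genes, and controls 1 and 4 do the reverse.

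Single genes followed the same pairing of libraries. The 2 highest values of a gene were in controls 2 and 3 for 41.7% of genes with a mean of at least 10 CPM and in controls 1 and 4 for 30.5%, while the pair of the shared cross, controls 1 and 2, held them for 8.80%. When the trend against GC content was removed from each library, an alternative added after seeing the data, some genes lost most of their range and others kept it. Tfrc went from a 3.35-fold to a 1.47-fold range, Ccr2, a chemokine receptor of monocytes, from 2.67-fold to 1.17-fold, and S100a9 from 2.00-fold to 1.30-fold. Dmp1 kept 3.87 of 3.91-fold, Col1a1 3.86 of 4.77-fold, Klf1 2.21 of 2.23-fold and Myh7 16.8 of 17.4-fold. With the trend removed, 11 of the 13 erythroid genes were highest in control 4, and 5 instead of 11 ranged at least 2-fold. Over all genes with a mean of at least 10 CPM, 1348 of 10317 ranged at least 2-fold instead of 2926 of 10355. The share of all genes highest in control 4 with the trend removed was not computed. B2m, of the light chain of class I molecules, went the other way, from 1.16-fold to 2.48-fold.

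Neutrophil transcripts were abundant in every library. The 10 genes of later granules summed to 16665, 21613, 17624 and 16283 CPM (CV 13.5%). Ngp, a neutrophil granule protein, had 3470, 3644, 2930 and 3544 CPM (CV 9.39%), and Ltf, the iron-binding lactoferrin, had 3351, 3127, 2600 and 3691. S100a9, a subunit of calprotectin, had 2902, 5562, 5000 and 2777 CPM, and its partner S100a8 had 2579, 3678, 3142 and 2394. Chil3, a chitinase-like protein, had the widest range of the list, 3.05-fold. Of the 10, 5 were highest in control 2 (4 with TMM or DESeq2 factors or with the GC trend removed), against 31.5% of all genes with a mean of at least 10 CPM. The 5 primary granule genes, used by promyelocytes, summed to 3249, 2396, 2177 and 3601 CPM, and each of the 5 was highest in control 4 (4 of 5 with the GC trend removed), against 30.9%. Mpo, the myeloperoxidase, supplied 63.3% of that sum.

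Other blood lineages were present at lower levels. Monocyte and macrophage genes summed to 1387, 1244, 1121 and 1370 CPM (CV 9.69%), with Csf1r, the receptor for their growth factor, at 324, 206, 161 and 234. Megakaryocyte genes summed to 1265, 2194, 1374 and 2632 CPM, so controls 2 and 4 stood above controls 1 and 3. Ppbp, a platelet chemokine, had 405, 882, 535 and 844 CPM, and Itga2b, the platelet integrin alpha-IIb, had 371, 555, 371 and 802. Of the 9 megakaryocyte genes, 7 ranged at least 2-fold, against 28.3% of all genes with a mean of at least 10 CPM.

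Lymphoid lists were lower still, and the mast cell, basophil and eosinophil list summed to 1602, 532, 694 and 624 CPM. B-lineage genes summed to 363, 279, 258 and 374 CPM and were led by Cd79b, a chain of the B cell receptor, with 97.0, 71.3, 61.8 and 103. T and NK cell genes summed to 95.0, 127, 96.4 and 105 CPM, of which Nkg7, a granule protein, gave 37.6%, and the T cell receptor chains Cd3e, Cd3d and Cd3g had means of 2.23, 2.56 and 3.36. Jchain, the joining chain of secreted antibodies, gave 78.5% of the plasma cell sum, and Igkc, the kappa constant region, had 403, 509, 298 and 669 CPM. The eosinophil genes Prg2 (1097, 336, 449 and 399 CPM) and Epx (409, 104, 170 and 160 CPM) were highest in control 1. Mcpt8, a basophil protease, had 20.6, 20.99, 20.05 and 14.2 CPM, so controls 1, 2 and 3 lay close together. With the GC trend removed it was highest in control 1 (21.9, 19.4, 19.5 and 15.4).

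Endothelial sums lay close together in CPM. The 9 endothelial genes summed to 655, 612, 603 and 727 CPM (CV 8.68%). The highest sum was 1.20 times the lowest, or 1.43 times with TMM or DESeq2 factors. Of the 9, 1 ranged at least 2-fold (2 with those factors), against 28.3% of all genes with a mean of at least 10 CPM. Pecam1, a junction protein of vessels, had 138, 125, 125 and 116 CPM, and Stab2, a scavenger receptor of sinusoids, had 145, 169, 175 and 206. Cxcl12, the chemokine of the marrow niche, had 821, 1108, 801 and 1170 CPM and made up 73.6% of the stromal sum of 1193, 1526, 1135 and 1446. Pdgfra, a receptor of mesenchymal cells, differed from it, with 180, 100, 70.3 and 53.9 CPM. Smooth muscle and pericyte genes summed to 239, 124, 113 and 91.6 CPM, led by Cspg4, the proteoglycan NG2, at 93.3 in control 1 and 18.5 to 29.9 in the others. Schwann cell genes summed to 119 ± 15.1 (SD, n = 4) CPM, nearly all of it Mbp, a myelin protein also transcribed in blood cells (107 CPM), while Sox10, the defining factor of these cells, had at most 0.705.

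Progenitor and cell state genes completed the lists. The 6 stem and progenitor genes summed to 166, 161, 134 and 124 CPM, with Kit, the stem cell factor receptor, at 59.0, 71.6, 58.3 and 55.4. Proliferation genes summed to 1861, 3996, 4121 and 2368 CPM, but Mki67, the nuclear antigen Ki-67, gave 47.3% of this (735, 2108, 2261 and 736 CPM). Cdk1, the mitotic kinase, had 115, 133, 133 and 174 CPM, and Mcm5, a replication licensing factor, had 314, 262, 260 and 555. In CPM, members of this list were thus highest in different controls. Of the 8, 3 were highest in control 4, against 30.9% of all genes with a mean of at least 10 CPM. With TMM or DESeq2 factors it was 5 of 8, and with the GC trend removed 6 of 8. The share of all genes was not computed for those settings. Immediate early genes, which respond quickly to stress, were highest in control 1 in 7 of 8 cases, against 21.3% of all detected genes, with Hspa1a, a heat shock protein, at 9.68, 2.67, 1.86 and 3.04 CPM. Dusp1, a phosphatase induced by stress, had 86.9, 55.7, 55.98 and 41.5 CPM.

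**Figure D4:**
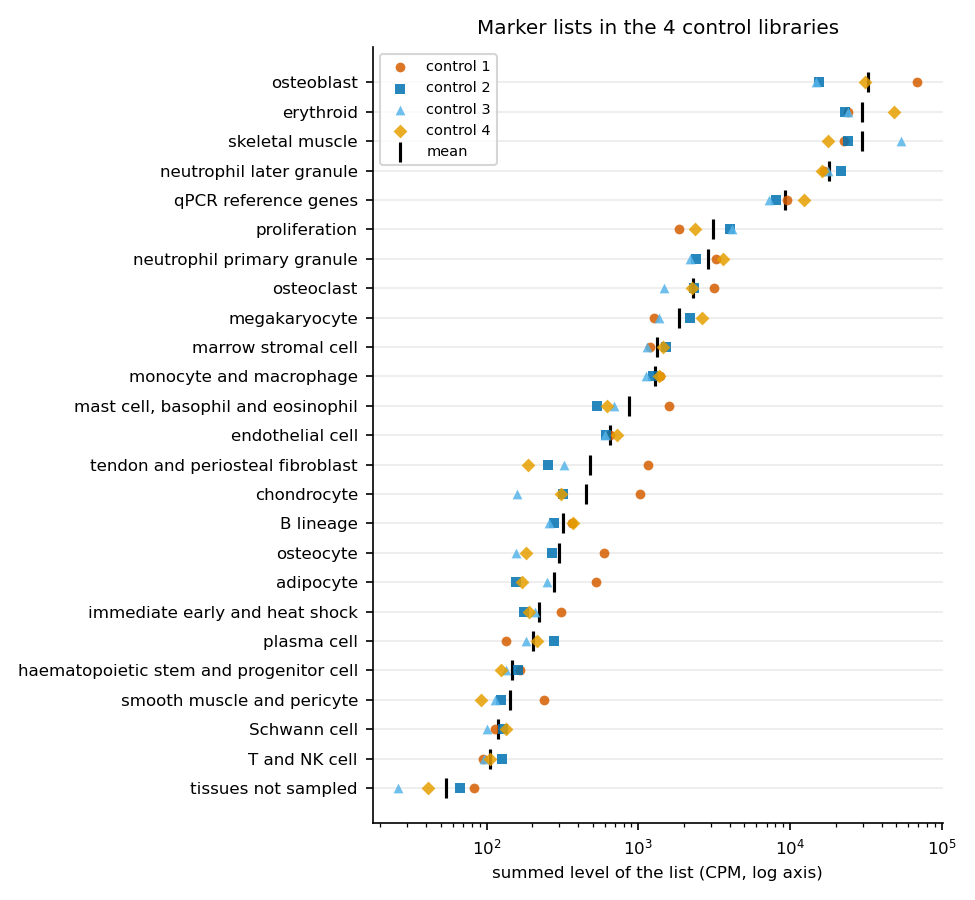
Summed level of each marker list (y axis, ordered by mean) in the 4 control libraries (points) with their mean (black bar), in CPM on a log axis. Osteoblast, cartilage, tendon and adipocyte lists stand highest in control 1, muscle in control 3 and the erythroid list in control 4, while endothelial and monocyte lists lie close together.

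The reference genes often used in PCR were not uniform. Actb had 7287, 6078, 5155 and 9299 CPM. Hprt, a purine salvage enzyme, had 22.2, 46.7, 47.8 and 26.0. B2m was the steadiest in CPM, with 695, 690, 800 and 758 (CV 7.15%). Gapdh and Ppia were listed at means of 14.3 and 7.58 CPM, and since both have many processed pseudogenes whose reads may not be assigned, these levels are uncertain.

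Over all genes with a mean of at least 10 CPM, the median CV was 22.1% (quartiles 13.7% and 34.7%), and 21.7% after the part expected from counting error was taken off. The median range from the lowest to the highest control was 1.61-fold, 2926 genes ranged at least 2-fold and 340 at least 4-fold. Of the 2926, control 4 was the lowest library for 1768 and the highest for 289, while control 2 was the highest for 1060 and the lowest for 140. With the GC trend removed 1348 genes ranged at least 2-fold. The 10 genes of lowest CV were Osbpl7, Chp1, B430306N03Rik, Ttc5, Rnf7, Tsnax, Vapb, Vcp, Vps8 and Slc25a45, with CVs from 0.480% to 1.71%, below what counting error alone gives at their depth. Vcp, an ATPase that extracts proteins for degradation, had 91.0, 91.6, 93.9 and 93.9 CPM, and Osbpl7, an oxysterol-binding protein, had 29.7 to 29.99. Long noncoding RNAs took 0.985%, 1.92%, 1.97% and 0.754% of the counts, with Malat1, a nuclear RNA, at 5333, 11137, 11850 and 3525 CPM and Kcnq1ot1, an imprinted antisense RNA, at 138, 354, 378 and 122. Counting did not state a strand setting, so reads of Kcnq1ot1 and the gene it overlaps cannot be told apart.

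**Figure D5:**
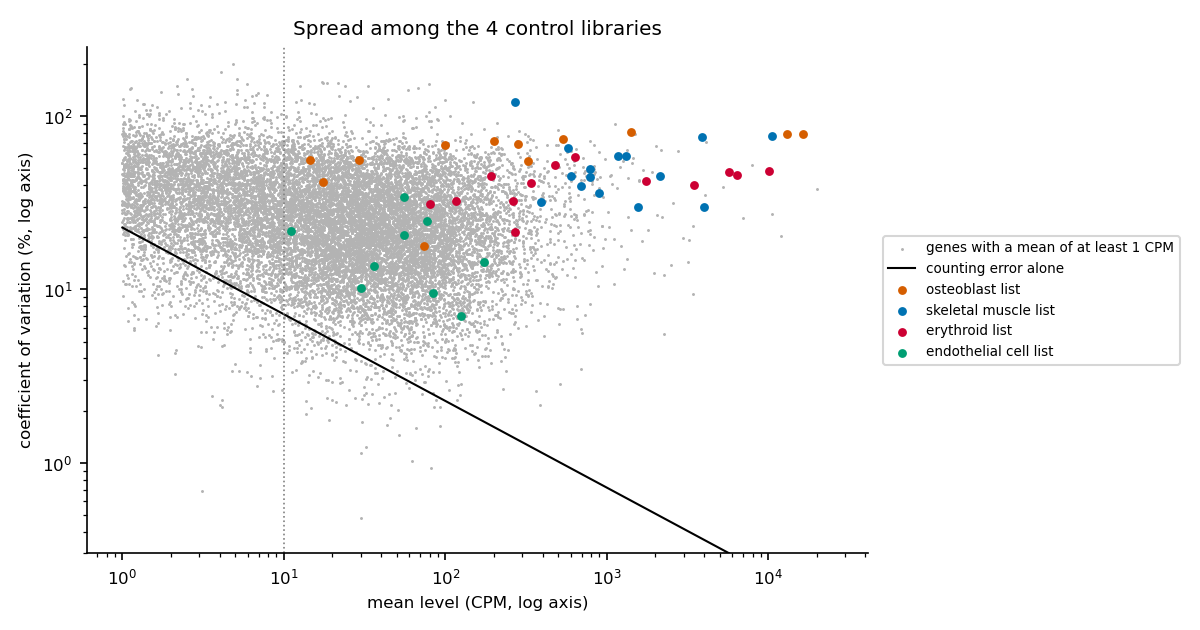
Coefficient of variation over the 4 control libraries (y axis, percent, log scale) against mean level (x axis, CPM, log scale), 1 grey point per gene with a mean of at least 1 CPM and a dotted line at 10 CPM; the black line is the value that counting error alone would give. Osteoblast, muscle and erythroid markers lie mostly above the bulk of genes of their level, and most endothelial markers lie within or below it.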

How the data were processed

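RNA of flushed femora was sequenced as 100-base paired-end reads from TruSeq RNA libraries. The authors aligned them to the mouse build mm10 using Rsubread and counted them per Entrez gene with featureCounts on the annotation that comes with Rsubread, and the deposited values are raw counts with no gene filter and no pooling of replicates. The submitters' processing notes name bcl2fastq 2.17.1.14, and the strand setting was not given in the sources used here.

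From these counts, CPM was computed as counts over the library total, times 1000000, with numpy 2.4.6 and pandas 2.3.3 in Python 3.11.15, and CPM per kilobase from the deposited exon length. Positions and gene types came from RefSeq for GRCm38.p6, which is the same build as mm10 and held 25275 of the 27179 genes. For 863 genes the files give no symbol. Spread was taken over genes with a mean of at least 10 CPM, as the CV, with counting error subtracted as a second value, and as the ratio of the highest to the lowest library. On simulated counts with a true CV of 10%, the root mean square of the CVs over genes, with counting error subtracted, was 10.0%. With so few libraries the median CV lies below the true value, so this check does not cover the median CV given above. No test between groups was made, because a single group was described, and Dixon's ratio (limit 0.829) was used to find values in which 1 library stood apart. Alternatives were TMM factors (edgeR 4.0.16), size factors (DESeq2 1.42.0), totals without globin genes, other minimum levels and leaving out each library in turn. A correction that took the median deviation at each GC content out of every library (20 bins, the longest protein-coding transcript of each gene in GENCODE M21) was added after seeing the data. The genes named are the 20 of highest mean CPM, the 20 of highest CPM per kilobase, the 20 of highest and 10 of lowest CV, the members of 25 marker lists and Efnb2, and others are named as chosen after their values were seen. The members and lists were chosen with earlier results of these data known. Efnb1, Tnni1, Tnnc1, Myl2, Myl3, Igkc, Kcnq1ot1, COX2 and ATP6 were chosen after their values were seen. The single values of some list members are not reported here. Intervals and limits cover counting error only.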

Additional observations from a re-analysis of the deposited data

Results flagged for a closer look

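For 93 values (list sums, class shares and named genes), the gap of the highest or lowest of the 4 libraries to its nearest neighbour was divided by the range of the 4, and 26 of them passed the limit for a sample that stands apart. Of the 26, 18 were among the 20 genes chosen for the highest CV over these same libraries, a choice that favours genes with 1 high library, so nothing is read from their number or side. Of the other 73 values 8 passed, where chance passes about 1 in 20, or 3.65. These 8 were the globin share, the erythroid list and 4 of its genes or other globins, all highest in control 4, and 2 lists highest in control 1, so they share genes and are not independent.

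In control 1, the gap was 0.857 of the range for the summed tendon and periosteal list and 0.848 for the mast cell, basophil and eosinophil list. Among single genes it was largest for Igfbp6, an IGF-binding protein (0.97). The cartilage and tendon genes there were Comp (0.96), Chad (0.955), Cilp2 (0.936), Cilp (0.932), Acan (0.892), Fmod (0.869), Prg4 (0.851) and Thbs4 (0.848), and the growth regulator Nov had 0.872. The genes of fat and gluconeogenesis were Cidec (0.921), Cfd (0.91), Cyp2e1 (0.868) and Pck1 (0.865).

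In control 4, the gap was 0.946 of the range for the erythroid list and 0.904 for the globin share, with Hbb-bs (0.912), Hba-a2 (0.897), Slc4a1 (0.878) and Hbb-b1 (0.869) as its genes. Gdpd3 (0.952) and the antibody segment Ighv10-1 (0.952) stood apart there too, Igkv3-2 (0.893) in control 2 and the muscle gene Igfn1 (0.917) in control 3. What sets these libraries apart was not tested.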

How the results depend on the processing

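No paired analysis was possible because a single group of libraries was described and no result comes from a test between groups. Of 229 values recomputed under alternatives, 227 stayed near the reported value, within 1 SD over the 4 libraries for levels and shares and within 1.5 times for counts and the median CV. The exceptions were the number of genes ranging at least 2-fold, 2926 as reported, which was 5569 at a minimum mean of 1 CPM (15244 genes) and 1348 with the GC trend removed, where the median CV was 15.1% instead of 22.1%. Leaving out each library in turn gave 2080 to 2557 such genes and 14974 to 15269 detected genes. For levels and shares, leaving out 1 of the 4 libraries cannot shift a mean by 1 SD. Those values among the 227 were therefore fixed in advance and say nothing about stability. The other scalings raised some libraries and lowered others, or changed all totals by a few percent. They too could move the mean of a list sum only little, so its staying near says little. The limit for counts was wide, and 23210 genes with at least 1 count in any library passed as near the 15551 detected. Leaving out control 1 did change the mean sums of the osteoblast, chondrocyte and tendon and periosteal lists by over 1.5 times, as given above. Under TMM factors the highest library changed for 2 of 25 lists, marrow stromal cell and monocyte and macrophage, and the lowest for 5; with the GC trend removed the highest library changed for 3 lists, these and the plasma cell list, and the lowest for 8. Depth limits the genes of few counts, such as Fgf23.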
